A study of Drosophila melanogaster with 2 samples.

Results

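The genes of the cytoplasmic ribosome were taken from a chromatin immunoprecipitation and sequencing experiment on the Drosophila melanogaster protein CG32767. Members were the protein-coding genes of the Ensembl annotation whose symbol starts with RpL or RpS followed by a digit or P, together with sta, the gene of small subunit protein SA. They numbered 93 of the 13945 protein-coding genes on the 6 chromosome arms. By symbol, 54 of them were counted as large subunit genes and 39, including sta, as small subunit genes. Genes with a -like name are among them, though some encode factors of ribosome assembly. All material came from transgenic flies of the strain CG32767-GFP, which carried an insertion targeting CG32767 and made a fusion of CG32767 with eGFP, an enhanced green fluorescent protein. Whole embryos of 0 to 24 hours were immunoprecipitated with an antibody against GFP per the description of the samples, whose antibody label names CG32767, in 1 group of 2 biological replicates with 1 library each. The embryos pooled all tissues over the whole of embryogenesis, so strong binding in few cells and weak binding in many cannot be told apart. Nothing in the labels says which promoter drives the fusion, and no control library was analysed here.

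Each ribosomal protein is one structural part of the particle that translates messenger RNA, and the parts are needed in matched amounts, so the genes are transcribed strongly in growing cells. Loss of a single copy of many of these genes gives flies the Minute phenotype, with slow growth and short bristles. In Drosophila their transcription starts at a polypyrimidine (TCT) initiator in place of the usual initiator and relies on the TBP-related factor TRF2, and the factors DREF and M1BP are known at many of their promoters.

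A gene was counted as having a promoter summit when the highest point of a deposited peak lay within 500 bp of one of its annotated transcription start sites (TSSs). The signal of a peak is the authors' own value, in the units of their peak caller, and it ranks peaks within 1 list only. In the conservative list made from both replicates, called the main list here, 6 summits illustrate what lay at ribosomal protein genes. They are the 3 strongest at members and 3 that hold the DNA replication-related element (DRE, TATCGATA), the motif bound by DREF. The 101 bases centred on each summit are given 5′ to 3′ on the strand of the ribosomal protein gene, from the RefSeq dm6 assembly, and none of these windows holds an annotated exon. Capitals mark every match to the DRE, to TATAAA, to AAAAAA or to ATATAT on either strand.
RpL34b, chr3R:9401307-9401407, minus strand: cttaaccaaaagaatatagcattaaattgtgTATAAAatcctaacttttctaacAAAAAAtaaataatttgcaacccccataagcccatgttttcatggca
RpL32, chr3R:30046220-30046320, minus strand: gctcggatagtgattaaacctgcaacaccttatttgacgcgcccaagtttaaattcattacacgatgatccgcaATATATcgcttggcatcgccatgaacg
RpS20, chr3R:20822007-20822107, plus strand: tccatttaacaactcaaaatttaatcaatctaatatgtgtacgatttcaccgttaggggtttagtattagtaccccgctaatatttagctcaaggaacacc
RpL34a, chr3R:26059283-26059383, minus strand: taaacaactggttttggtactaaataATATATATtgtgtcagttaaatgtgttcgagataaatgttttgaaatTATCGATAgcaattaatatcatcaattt
RpS25, chr3R:11216332-11216432, minus strand: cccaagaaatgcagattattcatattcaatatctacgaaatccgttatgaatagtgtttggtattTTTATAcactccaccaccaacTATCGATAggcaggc
RpL28, chr3L:3223018-3223118, minus strand: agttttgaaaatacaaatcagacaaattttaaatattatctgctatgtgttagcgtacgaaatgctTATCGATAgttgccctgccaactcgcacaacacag
RpL34b had a TATAAA and a run of 6 A bases beside its summit, RpL32 had an ATATAT, and RpS20 matched none of the 8 motifs searched. RpL34a, RpS25 and RpL28 each had a DRE between the summit and the TSS of the ribosomal protein gene.

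The start sites of 4 of these genes, and of 3 other members with strong summits, are given below as 30 bases with an annotated TSS at base 16, in the same assembly and orientation. At RpS27, RpL7 and RpL13 that TSS is not the annotated one nearest to the summit, from which positions are measured in the later paragraphs. Capitals mark the TCT initiator, searched as TCTTTT or TCTTTC, or with a leading C as CCTTTT or CCTTTC, on the sense strand within 10 bp of a TSS.
RpL34b, chr3R:9401212-9401241, minus strand: gcgcgaacagggttgccaCCTTTCtttcta
RpL32, chr3R:30046147-30046176, minus strand: tcacaccaccagcttttTCTTTTcgcttct
RpS27, chr3R:25247458-25247487, minus strand: ctgcgatttaccccacttCCTTTTccgtgt
RpL7, chr2L:10201085-10201114, plus strand: gtatagcacgtttccggTCTTTCtttccct
RpL13, chr2L:9967315-9967344, plus strand: agttggttgcgatttCCTTTTtaattcgtt
RpS25, chr3R:11216273-11216302, minus strand: ggccgtttccgccctccaTCTTTCtgcatt
RpL28, chr3L:3222946-3222975, minus strand: tatgtcgggctgccatattTCTTTCcttct
RpS20 and RpL34a had none of these 4 words within 10 bp of an annotated TSS.

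CG32767-eGFP had a promoter summit at close to 1 in 2 ribosomal protein genes. In the main list 44 of 93 members had one, 47.3% with an exact 95% interval of 36.9 to 57.9%, against 14.1% of all protein-coding genes (1965 of 13945). The signals were moderate. The median over these 44 members was 98.5 and the range 55.7 to 195.3, whereas the 1965 protein-coding genes had a median of 123.9 and reached 1302. The strongest member, RpL34b, ranked 596 among the 3533 peaks of the list and the weakest, RpS19a, ranked 3257. The signal was above the median of the list, 104.8, in 18 of the 44 members. The 44 members had 44 distinct summits, some of which also lie near the TSS of a gene that is not a member. The peak was 390 bp wide in 43 of the members and 153 bp wide at RpL34b.

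The other thresholded lists, and the ranked list behind the main one, also held summits at a larger share of ribosomal protein genes than of protein-coding genes. The longer thresholded list from both replicates had a summit at 47 members (50.5%, 40.0 to 61.1%), against 17.4% of protein-coding genes. The thresholded list of replicate 1 had one at 27 members (29.0%, 20.1 to 39.4%), against 12.1%, and that of replicate 2 at 28 members (30.1%, 21.0 to 40.5%), against 10.6%. In the ranked list behind the main list, which keeps weak candidates as well, 85 members had a summit (91.4%, 83.8 to 96.2%), against 75.4% of protein-coding genes. The median signal of members was above that of all protein-coding genes in this ranked list, 74.8 against 34.9, and below it in the main list. The intervals cover counting error over genes only.

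**Figure D1:**
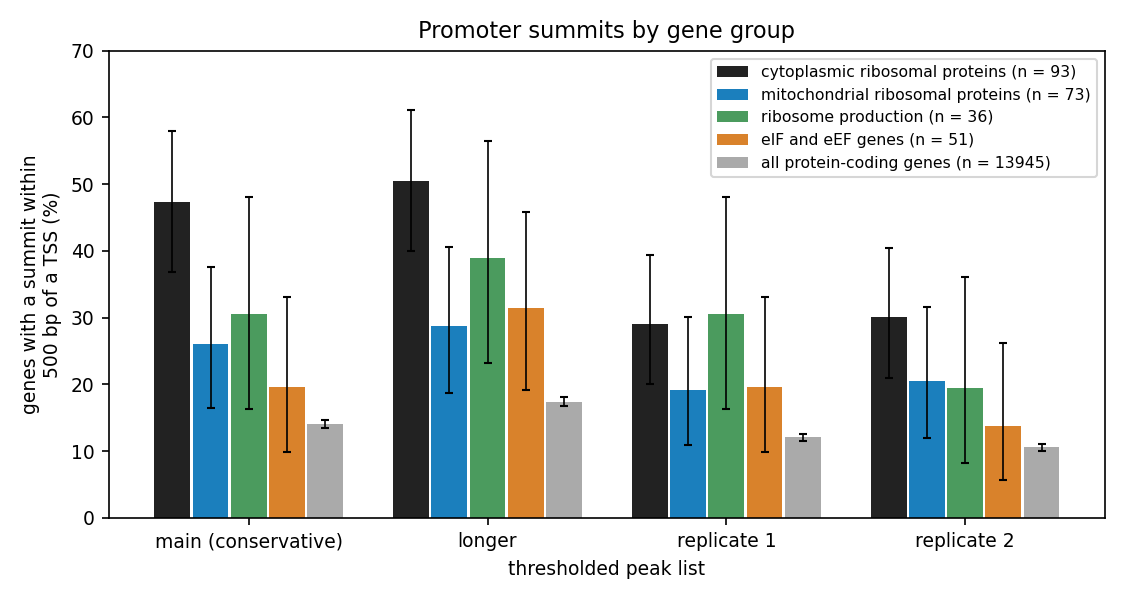
Share of genes (%) with a summit within 500 bp of a TSS in each thresholded list, for ribosomal protein genes and the groups set beside them, with exact 95% Clopper-Pearson intervals. In the main list the ribosomal protein genes stand at 47.3% and all protein-coding genes at 14.1%.

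Neighbouring groups of genes gave smaller or less certain shares in the main list. Genes of the mitochondrial ribosome, which translates the few proteins encoded in mitochondria, had a promoter summit in 19 of 73 cases (26.0%, 16.5 to 37.6%). Translation initiation and elongation factor genes had one in 10 of 51 cases (19.6%, 9.82 to 33.1%). A list of genes for ribosome production, such as RNA polymerase I subunits and nucleolar processing factors, had one in 11 of 36 cases (30.6%, 16.3 to 48.1%), and a list of growth regulators and promoter factors in 7 of 16 cases (43.8%, 19.8 to 70.1%). The ribosome production list includes Rrp1, in the fly a DNA repair nuclease, and without it the count was 10 of 35. The interval of the ribosomal protein genes overlaps those of the mitochondrial ribosome, ribosome production and growth lists and not that of the translation factors, and no difference between these groups was tested. In the list of replicate 1 the ribosome production genes reached 30.6%, level with the 29.0% of the ribosomal protein genes. The median signals of these groups in the main list were higher than the 98.5 of the ribosomal protein genes. They were 130.9 for the mitochondrial ribosome, 102.2 for translation factors, 148.1 for ribosome production (127.6 without Rrp1) and 139.6 for the growth list. In the longer list the ribosomal protein genes had 98.1. There the mitochondrial ribosome (129.3) and the growth list (127.0) were higher, and translation factors (94.3) and ribosome production (92.3) lower. Some of these genes share their summit with a ribosomal protein gene beside them. The main-list summit of Dref, with a signal of 139.6, is also that of RpL13, and the summit of the initiation factor gene eIF1, at 98.8, is also that of RpL28. In the ribosome production list, Mybbp1A shares its summit with RpL36, at 81.3. The gene eIF6 is counted both among the translation factors and in the ribosome production list.

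Among the large subunit genes 28 of 54 had a main-list summit (51.9%, 37.8 to 65.7%), with a median signal of 99.3. Among the small subunit genes 16 of 39 had one (41.0%, 25.6 to 57.9%), with a median of 92.2. The intervals overlap widely, and the longer list had 27 of 54 large and 20 of 39 small subunit genes. Replicate 1 alone had a summit at 16 large and 11 small subunit genes, and replicate 2 alone at 20 and 8. The large subunit genes with a main-list summit, from the strongest signal to the weakest, were RpL34b, RpL32, RpL41, RpL34a, RpL7, RpL27, RpL13, RpL11, RpL14, RpL23A, RpL19, RpL8, RpL6, RpL22, RpL28, RpLP1, RpL30, RpL17, RpL4, RpL31, RpL37A, RpL24, RpL3, RpL36, RpL23, RpL7A, RpL10Ab and RpL26. The small subunit genes were RpS20, RpS27, RpS4, RpS25, RpS21, RpS27A, RpS28b, RpS16, RpS14b, RpS7, RpS23, sta, RpS15, RpS26, RpS12 and RpS19a.

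The 3 strongest members lay on chromosome arm 3R, and each had a divergent neighbour whose TSS was within 500 bp of the summit. RpL34b, at one of the genes for large subunit protein eL34, had a signal of 195.3 in the main list, in a peak at chr3R:9401330-9401482 (dm6) whose summit lay 131 bp upstream of the TSS. Its signal was 149.6 in the ranked list of replicate 1 and 48.7 in that of replicate 2, where it ranked 355 and 2179, and the other TSS belonged to CG8132. RpL32, a large subunit gene long used in flies as a reference transcript under the name rp49, had 182.7 in the main list at chr3R:30046075-30046464, and 98.6 and 84.7 in the replicates. Its summit lay 109 bp upstream of its own TSS and 200 bp upstream of that of CG7943. RpS20, which encodes a protein of the head of the small subunit, had 168.4 at chr3R:20821862-20822251, with 102.0 in replicate 1 and 63.8 in replicate 2. The rank of RpS20 was 728 in replicate 1 and 1283 in replicate 2, and that of RpL32 was 783 and 727.

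RpS27, a small subunit gene, had a main-list signal of 154.3 at chr3R:25247316-25247705, with 99.7 in replicate 1 and 55.7 in replicate 2. Its summit lay 3 bp downstream of its nearest annotated TSS, in its own 5′ untranslated region. The TSS of the nucleoporin gene Nup37 and that of a non-coding RNA lay within 500 bp. RpL34a, the other eL34 gene, had 149.2, with 76.0 and 71.9 in the replicates, 66 bp upstream of its TSS and close to the tRNA methyltransferase gene Trmt61. Both copies of eL34 were therefore among the 12 strongest members, at separate places on arm 3R. RpL7, a large subunit gene, had 144.1 at chr2L:10200830-10201219, with 78.3 and 61.4 in the replicates, 21 bp downstream of its nearest annotated TSS. RpL13 had 139.6 at chr2L:9967015-9967404, with 85.8 and 49.9. It faces Dref, the gene of the factor that binds the DRE. The shared summit lay 103 bp upstream of the nearest annotated RpL13 TSS, in an exon of Dref. It was nearer to a TSS of Dref, 19 bp downstream of it.

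RpL41, whose product is one of the shortest proteins of the large subunit, had a main-list signal of 152.4, with 84.3 in replicate 1 and 71.7 in replicate 2. Its summit lay 108 bp upstream of its TSS and 74 bp upstream of a TSS of the sodium channel gene NaCP60E. The summit is in an intron of NaCP60E, on arm 2R. RpL11, which joins the 5S RNA particle of the large subunit, had 138.0, with 61.3 and 77.9 in the replicates and its summit 7 bp downstream of the TSS, also on arm 2R. No other TSS lay within 500 bp of its summit. All 9 members named so far were in the thresholded lists of both replicates.

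The other 3 of the 12 strongest members were in the thresholded list of replicate 2 and not in that of replicate 1. RpL27 had 143.6 in the main list, with 54.6 in replicate 1 and 87.4 in replicate 2, and its summit 30 bp upstream of the TSS. RpS4, a small subunit gene on arm 3L, had 132.0, with 67.6 in replicate 1 and 66.6 in replicate 2, and its summit lay 6 bp downstream of the TSS. RpL14 had 130.6, with 34.1 in replicate 1 and 91.3 in replicate 2. Its summit lay 25 bp upstream of the TSS, near the TSS of Nelf-E, a subunit of the complex that holds paused RNA polymerase II. In replicates 1 and 2 the ranks were 2050 and 680 for RpL27, 1477 and 1171 for RpS4, and 4444 and 631 for RpL14.

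**Figure D2:**
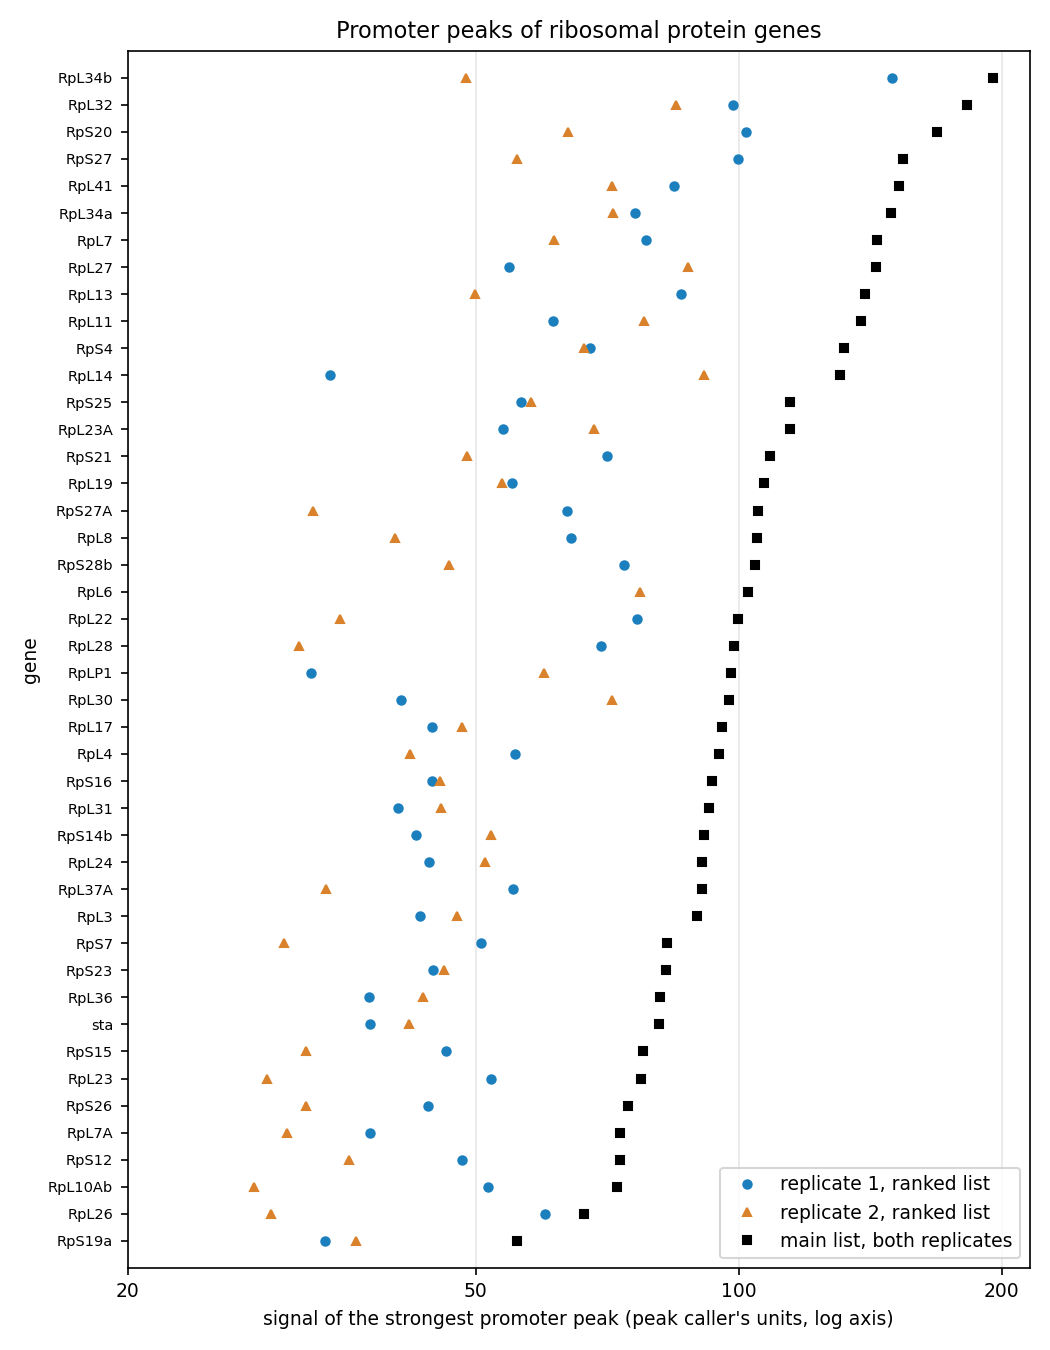
Deposited signal (peak caller's units, log axis) of the strongest promoter summit of the 44 members in the main list and in the ranked list of each replicate. The values fall from 195.3 at RpL34b to 55.7 at RpS19a in the main list, and RpL6 has no candidate in replicate 1.

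Support from single replicates was uneven over the ribosomal protein genes. Of the 44 members with a main-list summit, 16 were in the thresholded lists of both replicates, 8 in that of replicate 1 alone, 11 in that of replicate 2 alone and 9 in neither. The same split was not made for all protein-coding genes, so it is not shown to be particular to the members. The 5 strongest members of the replicate 1 list alone were RpL22 (76.4), RpS21 (70.7), RpL28 (69.5), RpS27A (63.6) and RpS29 (61.6). In replicate 2 the ranked list gave them 35.0 for RpL22, 48.9 for RpS21, 31.4 for RpL28, 32.6 for RpS27A and 25.2 for RpS29. RpL22 encodes a large subunit protein, RpS21 is known for a tumour suppressor role in fly blood tissue under an older name, and RpS27A encodes a fusion of ubiquitin to a small subunit protein. The 5 strongest of the replicate 2 list alone were RpL14 (91.3), RpL27 (87.4), RpL6 (77.2), RpS4 (66.6) and RpLP1 (59.8). RpLP1, a protein of the acidic stalk that recruits elongation factors, had 32.4 in replicate 1. RpL6 had no candidate within 500 bp of a TSS in the ranked list of replicate 1, although its main-list signal was 102.4, at a summit in its own coding exon 82 bp downstream of the TSS.

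Candidates in both ranked replicate lists were found at 77 members. Their median signals were 42.7 in replicate 1 and 35.3 in replicate 2, each on the scale of its own list. Across these 77 genes, which are not independent replicates, the log2 signals of the replicates had a Pearson correlation of 0.607 and the signals a Spearman correlation of 0.561. No candidate in either replicate was found at RpL10, RpL21, RpL38 and RpL10Aa.

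**Figure D3:**
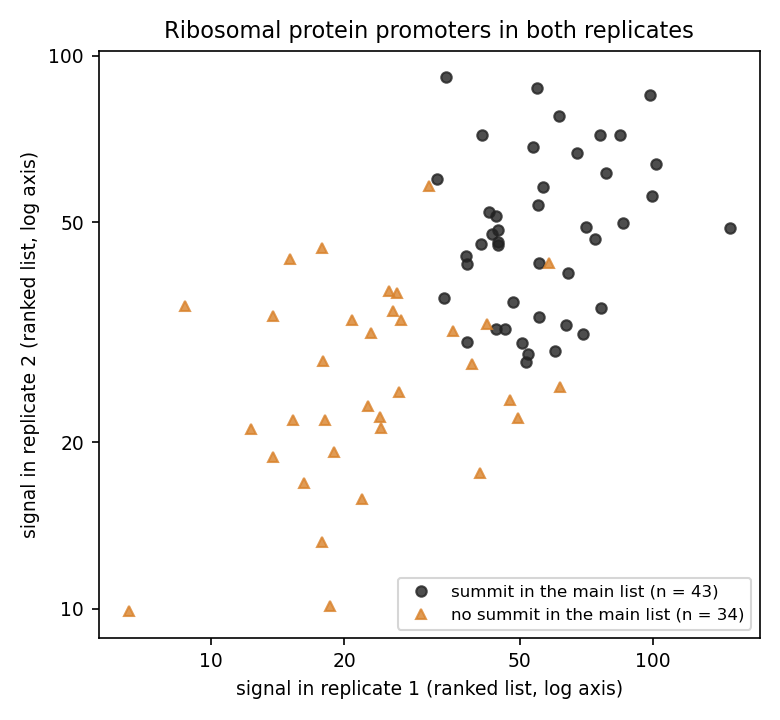
Signal of each member in the ranked list of replicate 1 against that of replicate 2, both on log axes in the peak caller's units, for the 77 members with a candidate in both. Members with a main-list summit lie mostly at higher signals in both libraries, as follows from the making of that list from the same replicates. The Pearson correlation of the log2 signals is 0.607.

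The 49 members with no main-list summit included some of the members of several functional groups. The stalk base gene RpLP0 and the stalk gene RpLP2 had none, whereas RpLP1 had one. RpL40, the ubiquitin fusion of the large subunit, had none, whereas RpS27A, the ubiquitin fusion of the small subunit, had one. RpS6, whose protein is phosphorylated downstream of growth signalling, had none, and neither did RpS3, RpS2 or RpS9 of the small subunit. RpL5, which joins RpL11 in the 5S particle, had no candidate in the ranked conservative list. Others without one were RpS29, RpL18, RpS15Aa, RpL13A, RpL37-1, RpS13, RpL27A, RpS10b, RpS24, RpL36A, RpS18, RpL15, RpL35, RpL39, RpL29, RpL24-like, RpS10a, RpL12, RpS28a, RpS14a, RpL35A, RpLP0-like, RpL22-like, RpS15Ab, RpL7-like, RpL10Aa, RpS30, RpL37-2, RpL10, RpL21, RpL38, RpL9, RpS19b, RpS28-like and RpS3A.

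A few of these members passed the threshold of another list. The longer list held 7 of these members, among them RpS29 (99.1), RpS15Aa (81.3), RpLP0 (71.9), RpS3A (65.1), RpS13 (62.6) and RpS30 (57.0), and RpL18 was in the thresholded list of replicate 2 alone with 58.2. Conversely 4 members of the main list were not in the longer list. In all 52 of 93 members were in at least 1 of the 4 thresholded lists and 41 in none, a count not made for all protein-coding genes. The threshold was an irreproducible discovery rate (IDR) of 0.01, an error rate derived from the agreement of ranks between sets of peaks. Just inside it lay RpL10Ab with an IDR of 0.00903 and RpL7A with 0.00899, and just outside it RpS29 with 0.0145, RpS10b with 0.0157 and RpL36A with 0.0169. RpL13A had an IDR of 0.00611 in the ranked list and a signal of 66.6, yet it is not in the main list, and no source used here names the filter that removed it.

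No candidate at all was found in the ranked conservative list at RpL10, RpL21, RpL38, RpL5, RpL9, RpS19b, RpS28-like and RpS3A. Of these, RpL5 lies 0.977 Mb and RpL21 1.27 Mb from the centromere end of its arm in the assembly, and RpS3A is the only member on chromosome 4. The others lie further away, RpL38 at 4.52 Mb, RpL10 at 5.01 Mb, RpL9 at 12.5 Mb, RpS28-like at 14.1 Mb and RpS19b at 23.9 Mb. RpL15, at 0.842 Mb, also had no main-list summit, and the nearest main-list summit to it was 2146523 bp away. Over the arms, 9 of 19 members on 2L had a main-list summit, 8 of 21 on 2R, 8 of 14 on 3L, 11 of 23 on 3R and 8 of 15 on the X. The median signal of the members with a summit was 143.6 on 3R and 86.3 on the X. Shares and medians of all protein-coding genes by arm were not computed, so differences between arms are not shown to be particular to the members.

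The summits of ribosomal protein genes lay closer to the nearest annotated TSS than promoter summits in general. Where a gene has several annotated TSSs, the nearest was used, for members and for all protein-coding genes alike. The median number of annotated TSSs was 1 over all 93 members and over all protein-coding genes. It was not computed for genes with a summit, and among those members RpL28 had 5, RpS7 4 and RpL7A 4. Extra TSSs can only shorten the distance to the nearest, and their effect on this contrast was not tested. The nearest TSS need not be the one at the TCT initiator, and positions from TCT start sites alone were not computed. The median position of the 44 members was 30.5 bp upstream of the TSS (written −30.5), with quartiles of −94.25 and 7.5, against a median of −125 and quartiles of −209 and −34 for all protein-coding genes with a promoter summit. The summit was within 50 bp of the TSS in 23 of 44 members (52.3%, 36.7 to 67.5%) and in 266 of 1965 protein-coding genes (13.5%, 12.1 to 15.1%). It was within 150 bp in 42 of 44 members (95.5%, 84.5 to 99.4%), against 51.7%. The other 2 members were RpL23 at −439 and RpL10Ab at −429. These summits lay nearer to the TSSs of neighbouring genes, at −117 from CG13531 for RpL23 and at −147 for RpL10Ab, where CG11597 and CG5946 start. The summits of RpL13, 19 bp downstream of a Dref TSS, and RpL41, at −74 from NaCP60E, were also nearer to a neighbour. RpL10Ab also had a weaker main-list summit, 228 bp from its TSS. Summits upstream of the TSS made up 30 of 44 (68.2%, 52.4 to 81.4%), against 79.9%. The summit base lay between genes in 25 members, in the member's own 5′ untranslated region in 13, in an exon of another gene in 2, in the member's own intron in 2, in an intron of another gene in 1 and in the member's own coding exon in 1.

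**Figure D4:**
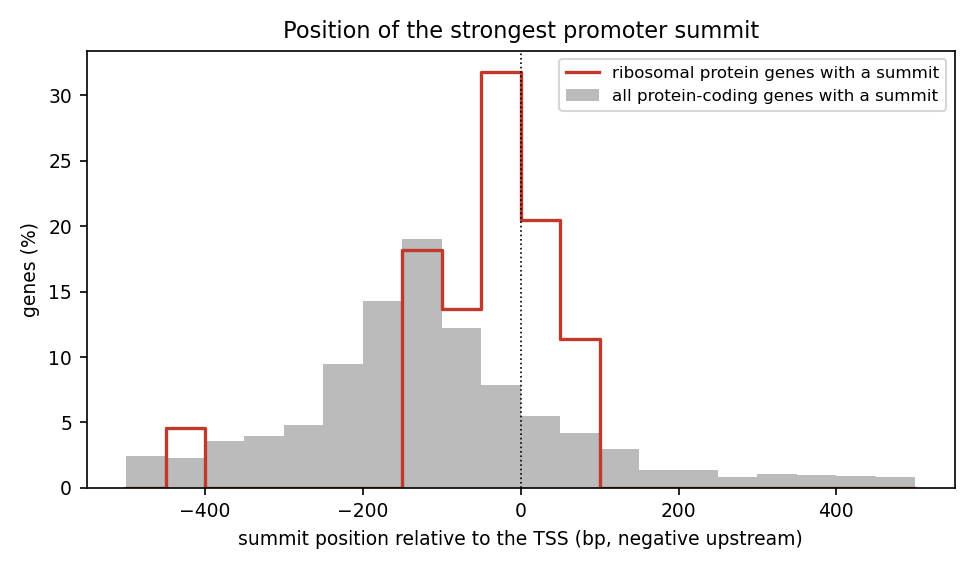
Position of the strongest promoter summit relative to the nearest TSS (bp, negative upstream) as a share of genes (%), for the 44 members and all 1965 protein-coding genes with a main-list summit. The members centre at −30.5 bp and the protein-coding genes at −125 bp.

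Many of these promoters are shared with another gene. The TSS of another protein-coding gene lay within 500 bp of the summit in 24 of 44 members (54.5%, 38.8 to 69.6%), close to the 50.1% of all protein-coding genes with a promoter summit. These 24 members had a median position of −54.5 and a median signal of 106.2, and the other 20 had −5.5 and 93.5. Of the 24, 12 had the summit over 50 bp upstream of the TSS and 10 within 50 bp, and of the 20 the counts were 4 and 13. The presence of a neighbour also went with the presence of a summit. Another gene's TSS lay within 1000 bp of a TSS in 72 of 93 members and in 6726 of 13945 protein-coding genes. Where one did, 39 of 72 members had a main-list summit (54.2%), against 20.5% of those protein-coding genes. Where none did, 5 of 21 members had one (23.8%, 8.22 to 47.2%), against 8.15% (588 of 7219). The same split by a coding gene on the opposite strand gave 30 of 56 members with (53.6%) and 14 of 37 without (37.8%), against 23.3% and 8.74% of protein-coding genes. How much of the members' share comes from neighbours was not tested.

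Ribosomal protein genes host many small nucleolar RNAs (snoRNAs), which are encoded in introns, released from them and guide the modification of ribosomal RNA. The annotation placed 76 snoRNA genes inside 29 members. A main-list summit was found at 17 of these 29 hosts (58.6%, 38.9 to 76.5%) and at 27 of the 64 members without one (42.2%, 29.9 to 55.2%), with overlapping intervals. The same split was not made for all protein-coding genes.

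The paralogous families of ribosomal protein genes had a main-list summit at a single copy in 7 of 13 cases. Copies with the same name but for a final letter, a number or -like formed 13 families of 27 members, of which 9 had a main-list summit (33.3%, 16.5 to 54.0%), against 35 of the 66 members without a named paralog (53.0%, 40.3 to 65.4%). Both copies had a summit in the RpL34 family, neither copy had one in 5 families that include RpL37, RpLP0, RpS10 and RpS15A, and exactly 1 copy had one in the other 7. For RpL7 the signal was 144.1 in the main list, and RpL7-like had 22.4 in the ranked list behind it. RpL22 had 99.9 and RpL22-like 25.0, and RpL24 had 90.9 and RpL24-like 35.8, on the same scale. Of the 5 genes with a -like name, which include factors of ribosome assembly as well as variants with restricted expression, 0 had a main-list summit. Of all protein-coding genes 14.1% had one, and 5 genes are too few to set beside that share.

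Among the families named by letters, 4 had a summit at exactly 1 copy. RpL10Ab had 72.6 and RpL10Aa 15.9, RpS28b had 104.5 and RpS28a 33.6, and RpS19a had 55.7 while RpS19b had no candidate in the ranked conservative list, and RpS28-like had none there either. RpS14b had 91.2 and its tandem neighbour RpS14a 28.9, with RpS14a lying 1077 bp from the nearest main-list summit. Near-identical copies can share reads, and no source used here says how reads that map to several places were treated, so the split of signal within a family is uncertain.

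The windows under the summits of members held less AT than those at promoters in general, which whole promoters did not show. The 101-base windows at members had an AT content of 56.3% ± 9.73 (SD, n = 44 summits), those at all coding promoters 63.3% ± 11.8 (n = 1678) and those over 500 bp from any TSS 64.2% ± 10.7. The contrast was present both near the TSS and further away. Within 50 bp of the TSS members had 51.1% ± 6.17 (n = 23) and other genes 57.7% ± 9.62 (n = 236), and beyond 50 bp members had 61.9% ± 9.91 (n = 21) and others 65.2% ± 11.5 (n = 1310). Whole promoters, from 250 bases before to 50 after the TSS, had 62.1% ± 4.86 (n = 93) in members and 60.6% ± 7.33 (n = 13945) in protein-coding genes. Each of these differences is smaller than the SD among the windows of the other genes.

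The DRE was more frequent at the members' summits than at promoter summits in general. It was present in 7 of 44 windows (15.9%, 6.64 to 30.1%), at RpL41, RpL34a, RpL27, RpS25, RpL19, RpL28 and RpS7, against 48 of 1678 coding promoter summits (2.86%) and 2 of 1743 summits over 500 bp from any TSS (0.115%). Of summits within 50 bp of a TSS, 3 of 23 at members had it (13.0%, 2.8 to 33.6%). Other genes had it in 21 of 236 (8.90%, 5.59 to 13.3%), and the intervals overlap. Summits further away had it in 4 of 21 members (19.0%, 5.45 to 41.9%) and 32 of 1310 others (2.44%, 1.68 to 3.43%). In whole promoters, from 250 bases before to 50 after the TSS, the DRE was found in 28 of 93 members (30.1%) and in 10.2% of protein-coding genes. The share of promoters with it was nearly the same in members with a main-list summit (13 of 44, 29.5%) and without one (15 of 49, 30.6%). Of all 1965 protein-coding genes with a main-list summit, 318 had it (16.2%).

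The other motifs, searched on both strands, were found in few windows or at shares near or below those of coding promoter summits. The core of Ohler motif 1, GGTCACAC, which M1BP binds, was in 2 windows, at RpL7 and RpL30 (4.55%), against 1.31% of coding promoter summits. In whole promoters it was found in 16 of 93 members (17.2%) and in 8.71% of protein-coding genes. The core of Ohler motif 5, CAGCTG, was in 3 windows (6.82%), against 4.53%, and TATAAA in 4 (9.09%), against 19.2%. A run of AAAAAA, which may overlap other matches, was in 11 windows (25.0%), against 25.0%, and ATATAT in 3 (6.82%), against 14.2%. Neither GAGAGA nor CACACA was in any of the 44 windows, with an exact upper bound of 8.04%, whereas GAGAGA was in 4.65% of coding promoter summits and CACACA in 202 of 1678. A match is a description of the sequence, and none of these counts shows that a factor was bound.

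The TCT initiator marked most ribosomal protein genes. It was within 10 bp of a TSS in 63 of 93 members (67.7%, 57.3 to 77.1%) and in 422 of 13945 protein-coding genes (3.03%). Members with a main-list summit had it in 34 of 44 cases (77.3%, 62.2 to 88.5%) and members without one in 29 of 49 (59.2%, 44.2 to 73.0%), with overlapping intervals. Of all 1965 protein-coding genes with a main-list summit, 103 had it (5.24%).

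**Figure D5:**
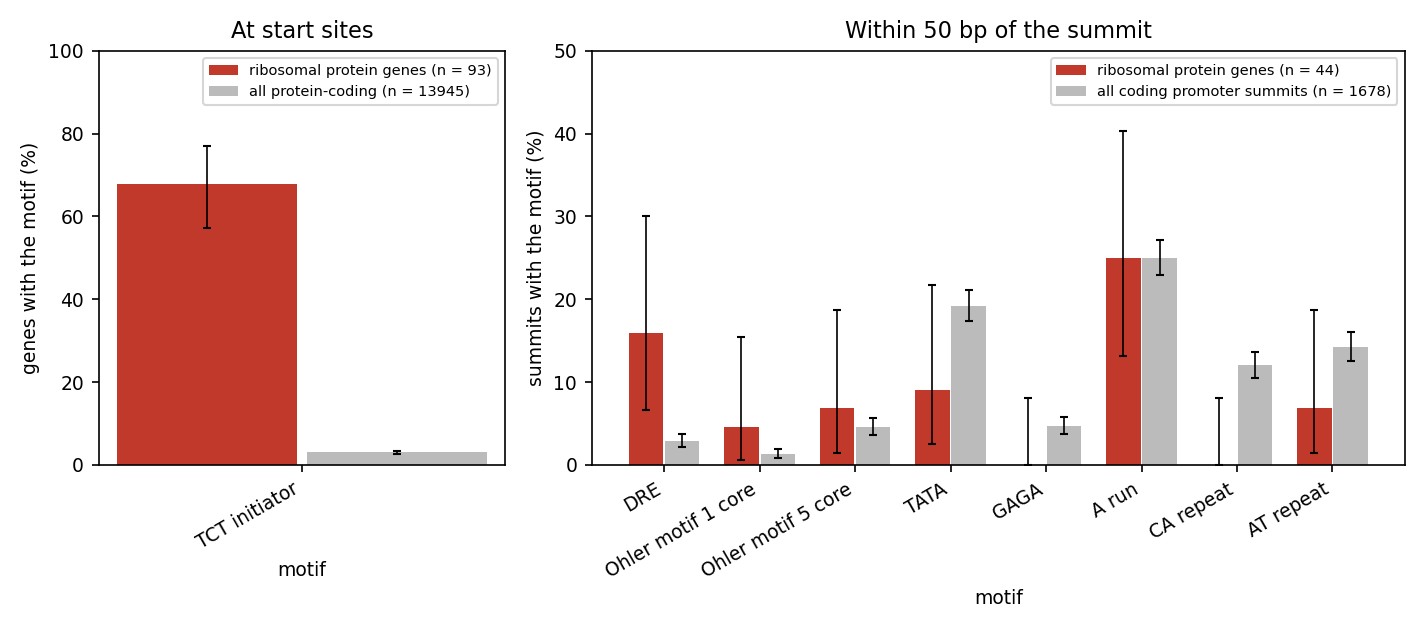
Left, share of genes (%) with a TCT initiator within 10 bp of a TSS, for the 93 members and all 13945 protein-coding genes. Right, share of summits (%) with each motif within 50 bp of the main-list summit, for the 44 members and 1678 coding promoter summits, with exact 95% Clopper-Pearson intervals. The DRE is at 15.9% of members' summits and 2.86% of coding promoter summits.

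Genes that make or regulate ribosomes gave a few strong promoter summits beside those of the ribosomal proteins. In the ribosome production list the strongest was eIF6, which keeps the large subunit from joining too early, with a main-list signal of 612.0, followed by mod (231.8), l(3)72Dn (173.9) and the polymerase subunit gene Polr1D (168.6). In the growth and promoter factor list, Xrp1, a transcription factor induced in Minute cells, had 198.9 and its partner Irbp18 182.7. The general factor gene TfIIA-L had 143.5, Thor, the fly 4E-BP, 114.4, M1BP 109.3 and Mnt 79.1. Each of eIF6, mod and Xrp1 was stronger than RpL34b, the strongest ribosomal protein gene.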

How the data were processed

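Chromatin immunoprecipitation libraries of CG32767-eGFP were analysed from 2 biological replicates of whole embryos, per the labels, on assembly dm6. The authors deposited 8 peak lists, 4 thresholded and 4 ranked. The deposited signal of a peak was used unchanged, on the scale of the unnamed peak caller. The deposited score in thresholded lists rescales the IDR, with a minimum of 830, equal to an IDR of 0.01. The deposited −log10 IDR of ranked lists was turned back into an IDR. The aligner, peak caller, control and filters were not given in the sources used here. Without read counts, sequencing depth is unknown, and intervals cover counting error over genes alone.

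The annotation was Ensembl release 115 (BDGP6.54), and bases were read from the RefSeq genome of that build. Work was done in Python 3.11.15 (pandas 2.3.3, scipy 1.17.1, numpy 2.4.6, matplotlib 3.10.9). Each gene took its strongest summit within 500 bp of any of its TSSs. Values in a replicate come from that replicate's own ranked list. With 1 group there is no contrast, so shares, medians and exact 95% Clopper-Pearson intervals are given without tests. Assignment of summits was tested on simulated data.

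Members, lists and motifs were chosen with earlier results of these data known. Values were printed for the 12 strongest main-list members, the 5 strongest in the thresholded list of 1 replicate alone, and paralogs of which exactly 1 copy had a summit. Genes that are no members were named as owners of a TSS within 500 bp of such a summit, or from the lists. Of 40 symbols in the ribosome production list 36 matched, and of 18 in the growth list 16. Some members are counted but not reported here by name. Alternatives were the longer list, each replicate alone, other windows and TSS choices, the upper 50% of peaks by signal, and members without copies or without close neighbours.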

Additional observations from a re-analysis of the deposited data

How the results depend on the processing

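The count of 44 members with a promoter summit was 47 in the longer list, 43 and 45 with windows of 250 and 1000 bp, 44 with the outermost 5′ end alone, 41 with the peak over the TSS base and 43 of 79 without -like names and second copies. With each replicate left out it was 27 to 28, in lists of 2887 and 2624 peaks where the main list has 3533. It was 18 in the upper 50% of the list by signal, which holds fewer peaks by construction, and 5 of 21 among members with no other gene's TSS within 1000 bp, which holds fewer genes. The median signal was 58.0 to 61.6 in single replicates, whose signals are on scales of their own, 138.8 in the upper 50% and 102.4 without neighbouring TSSs. The median position was −66 to −20 with each replicate left out, and −74 in the upper 50%, where the cause was not tested. The median position stayed upstream of the TSS in every alternative run. No paired analysis was possible because there was 1 group. The depth of the libraries is unknown, so a member without a summit is not shown to be unbound. Leaving Rrp1 out of the ribosome production list was chosen after seeing the data.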
